A study of Lactuca sativa with 24 samples.

Results

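Leaves of 2 varieties of lettuce (Lactuca sativa), Luna bionda and Falstaff, were compared after what the labels give as the same course of UVB light. Both groups carried the wild type genotype of their variety and were sampled at day 6 after UVB at 0.4 W/m2 for 2.5 h per day, given by a 306 nm LED beside white LEDs. There were 3 libraries of Luna bionda and 3 of Falstaff, chosen by their labels, which makes 6 of the 24 libraries of the series. The same pair of varieties was also sequenced at day 0 and at day 6 under visible light alone, with 3 libraries in each group, and these 12 libraries serve below as further measurements of the varieties. Whether the 3 libraries of a variety stem from different plants is not stated, and p-values therefore speak of the spread among libraries, part of which may be technical.

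Plants sense UVB with a photoreceptor protein of their own, which on absorbing the light releases a block on a set of transcription factors. The pathway is known in leaves for switching on flavonoid and other sunscreen pigments, DNA repair enzymes and growth restraint. Lettuce varieties differ in pigment and leaf form, and so a comparison of varieties under a single light treatment holds both inherited differences and any difference in the response to light. Long noncoding RNAs, a large class below, are transcripts with no evident protein product, and in plants they are commonly low in level and change quickly between related genomes. Apart from the genes for triosephosphate isomerase and cytosolic glutamine synthetase, the nuclear genes here carry locus identifiers with no product name, so no function is given for them. Reads of fewer cells of a type and less RNA per cell cannot be told apart in whole leaves.

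The libraries differed in quality within both varieties. Luna bionda had 17032268, 16483560 and 29545956 reads in genes in replicates 1 to 3, and Falstaff had 1013802, 18679356 and 27225611. In Falstaff replicate 1 a single read is worth 0.986 CPM, the level that a library scaled to 1000000 reads in genes would show, whereas it is worth between 0.0338 and 0.0607 CPM in the other 5 libraries. Plastid genes took 10.4% and long noncoding RNA genes 15.1% of the reads of Falstaff replicate 1, against at most 0.0078% and 3.09% in the other 5. Of 45 plastid photosynthesis genes, 39 had a read in that library and 11 to 14 had one in the others. These counts go with the make-up of the libraries and are no check of leaf tissue, and no nuclear leaf marker carried a name. Luna bionda replicates 2 and 3 ranked genes alike (Spearman correlation across genes 0.942), while replicate 1 reached only 0.81 and 0.84 with them and 0.875 and 0.889 with Falstaff replicates 2 and 3. The median SD of a gene on the log2 scale was 0.61 in Luna bionda and 0.70 in Falstaff, or 0.19 in Falstaff without replicate 1. The batch tags of the labels form a lower and an upper number series. All Luna bionda libraries and Falstaff replicate 1 are of the lower series and Falstaff replicates 2 and 3 of the upper, so outside the shallow library the variety and the tag series cannot be told apart. By the names of the deposited tables the Luna bionda UVB libraries have the condition of their labels. The Falstaff UVB libraries and the day 0 and visible light libraries of both varieties have another. There the Falstaff UVB libraries carry the name that marks UVB for 7.5 h per day in the Luna bionda labels. The Falstaff libraries labelled day 0 carry the name of UVB for 2.5 h per day, and those labelled visible light carry that of day 0. The Luna bionda libraries labelled day 0 carry the name of visible light. Luna bionda visible light replicate 1 carries the name of UVB for 7.5 h per day, and replicates 2 and 3 that of day 0. By those names the main comparison would set 2.5 h against 7.5 h per day. The day 0 comparison would set visible light against UVB for 2.5 h per day. The visible light group of Luna bionda would mix 2 conditions. The labels were followed, so the light conditions of these groups hold for the labels only, while the variety is the same under both. Falstaff UVB replicates 2 and 3 had a Spearman correlation of 0.972 with each other. With Falstaff day 0 replicate 2 they had 0.97 and 0.965, and with any other Falstaff library at most 0.946. Luna bionda UVB replicate 1 ranked genes most like a Luna bionda library labelled UVB for 7.5 h per day (Spearman 0.969). Falstaff visible light replicate 1, used further on, also stood apart from its group in several genes, and whether these 2 libraries received the labelled light was not tested.

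Under UVB, 99 genes were higher and 110 were lower in Luna bionda than in Falstaff, which is 209 of the 21225 genes tested, or 0.985% (0.466% higher and 0.518% lower). These calls come from limma with Benjamini-Hochberg adjustment at 0.05, on log2(normalized reads + 1). All 209 had groups that did not overlap in any library, as did 26.2% of all genes tested, with 3061 higher and 2491 lower in Luna bionda. At an unadjusted p below 0.05 there were 3299 genes, where 1061 would fall by chance. With edgeR's quasi-likelihood test 220 genes were called (1.04%), 193 of them among the 209, and with DESeq2 2065 (9.73%), which held all 209. The median difference over all genes tested by limma was 0.07 on the log2 scale, and the median standard error of a difference was 0.63. Scaling by library totals moved the median over all genes to -0.35 and the split to 78 higher and 145 lower, with 183 of the 209 genes called in the same direction.

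Most called genes had reads in one variety and none in the other. In 76 of the 99 higher genes no Falstaff library held a read, and in 79 of the 110 lower genes no Luna bionda library held one. A gene with no read in one variety passed the filter on low values through the other variety, so these counts describe the calls and are not a separate result. The smallest called difference was 2.22 on the log2 scale, the median was 6.57, and only 14 of the 209 genes differed by less than 16-fold. With genes at no read in a variety set to the lower bound that 3 reads over that group allow, the median was 7.24. Small and moderate differences lay below what a standard error of 0.63 and 3 libraries per variety could call. In reads the higher genes took 1.05%, 1.19% and 0.941% of the Luna bionda libraries, against 0.0509%, 0.122% and 0.103% of the Falstaff libraries. The lower genes took 0.00426%, 0.00408% and 0.00267% in Luna bionda and 0.532%, 0.457% and 0.513% in Falstaff. A single gene, LOC111902826, took 0.664%, 0.802% and 0.57% of the Luna bionda reads, and without it the higher genes took 0.389%, 0.389% and 0.371% in Luna bionda and 0.0279%, 0.0328% and 0.0356% in Falstaff. That gene was not called without Falstaff replicate 1 (limma adjusted p = 0.0564).

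**Figure D1:**
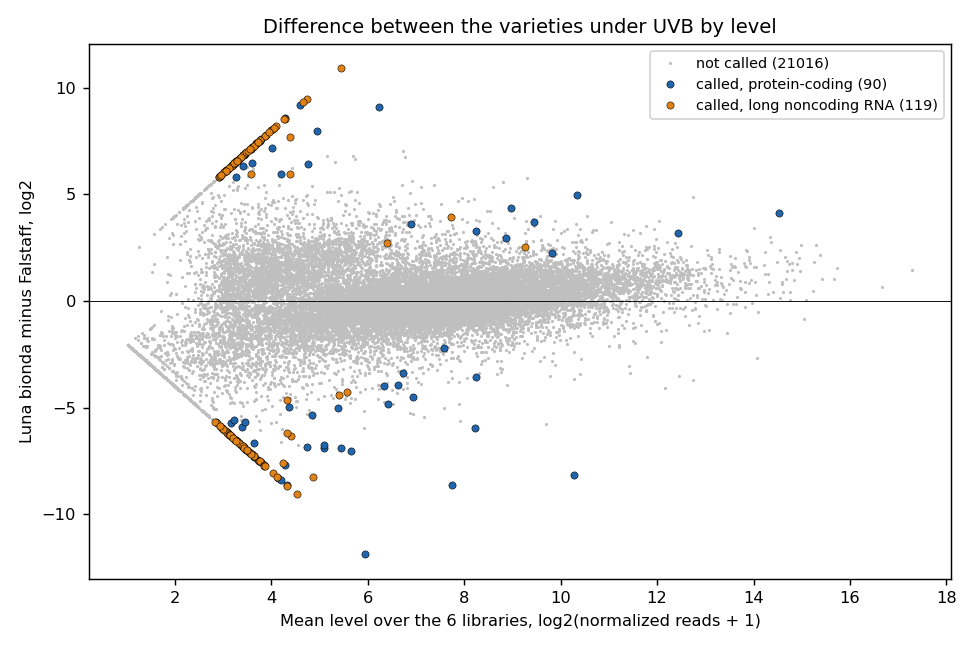
Each point is a gene tested under UVB. The horizontal axis is its mean level over the 6 libraries, as log2(normalized reads + 1), and the vertical axis is Luna bionda minus Falstaff on the log2 scale. Called genes are coloured by biotype (90 protein-coding and 119 long noncoding RNA), and the straight edges at low level are genes with no read in one variety.

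Long noncoding RNA genes made up 119 of the 209 calls, with 59 higher and 60 lower in Luna bionda. They were called in 7.02% of the 1694 tested, whereas protein-coding genes were called in 0.47% of the 19152 tested, 40 higher and 50 lower. The shares also differed within bins of level. That level is the mean over both varieties, so a gene with no read in one variety falls into a lower bin through its difference. The bins therefore do not hold level equal between the 2 classes. Below a mean log2 level of 4, 94 of 602 long noncoding RNA genes (15.6%) and 51 of 2321 protein-coding genes (2.2%) were called. Between 4 and 5 the shares were 6.13% and 0.705%. From 6 to 8 they were 0.519% of 385 and 0.136% of 6604, a comparison that rests on 2 long noncoding RNAs. Of the long noncoding RNAs called, 53 of 59 higher and 53 of 60 lower had no read in the other variety, as did 23 of 40 higher and 26 of 50 lower protein-coding genes. Such genes passed the filter on low values through the variety with reads. These counts thus describe the calls only and are no comparison of the 2 classes as a whole.

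The 3 long noncoding RNA genes with the largest change each had no read in Falstaff. LOC111886953 had 178, 92.1 and 135 CPM in Luna bionda and no read in the 3 Falstaff libraries, at least 2112-fold higher if 3 reads are taken as the floor for all Falstaff libraries together (limma adjusted p = 0.00218). LOC111902522 had 44.6, 47.3 and 53.6 CPM in Luna bionda and no read in Falstaff, at least 759-fold higher (limma adjusted p = 0.00636). LOC111908804 had 36.1, 49.7 and 46.5 CPM in Luna bionda and no read in Falstaff, at least 690-fold higher (limma adjusted p = 0.00774). Among protein-coding genes the most extreme lay on both sides. LOC111886693 had no read in Luna bionda, against 103, 742 and 523 CPM in Falstaff, at least 9578-fold lower in Luna bionda (limma adjusted p = 0.00586). LOC111905546 had 71.8, 38.3 and 22.7 CPM in Luna bionda and no read in Falstaff, at least 693-fold higher (limma adjusted p = 0.0103). The shallow library had the lowest of the Falstaff values for LOC111886693, and the varieties stayed apart in every library. All these bounds rest on the mean of the variety with reads, not on its lowest library. In the deep libraries of other conditions LOC111886693 did have reads in Luna bionda, up to 3.37 CPM, against 812 to 1328 CPM in Falstaff.

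Among genes whose mean log2 level reached 6, where both varieties mostly held reads, the 8 protein-coding genes with the largest higher calls included a pair of direct neighbours. LOC111902826 had 6639, 8025 and 5703 CPM in Luna bionda, against 230, 891 and 674 CPM in Falstaff, a difference of 4.12 ± 0.66 (SE) on the log2 scale (limma adjusted p = 0.0471). Its neighbour among the genes tested, LOC122194910, had 423, 546 and 510 CPM in Luna bionda and 10.9, 35.7 and 23.9 CPM in Falstaff, a difference of 4.95 ± 0.43 (limma adjusted p = 0.0103). The lowest Luna bionda library stood above the highest Falstaff library for both, and the shallow Falstaff library was the lowest of all 6. Without Falstaff replicate 1 the first lost its call, at 3.73 ± 0.63 (limma adjusted p = 0.0564), and the second kept it at 4.68 ± 0.40 (adjusted p = 0.00822).

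LOC111901947 stood far higher in Luna bionda replicates 2 and 3 than in replicate 1. It had 19.6, 314 and 273 CPM in Luna bionda, against 0, 0.535 and 0.441 CPM in Falstaff, a difference of 9.10 ± 1.31 on the log2 scale (limma adjusted p = 0.0344). Luna bionda replicate 1 lay well under its fellow replicates and near the 21.5 to 43.6 CPM (median 24.3) of the 8 deep Luna bionda libraries of other conditions. LOC111888333 had 1254, 1153 and 1032 CPM in Luna bionda and 187, 141 and 169 CPM in Falstaff, a difference of 3.21 ± 0.43 (limma adjusted p = 0.0271). Its 6 values fell into tight groups, and the shallow library did not stand apart. LOC111883285 had 105, 215 and 222 CPM in Luna bionda, against 7.89, 27.5 and 24.4 CPM in Falstaff, a difference of 3.70 ± 0.53 (limma adjusted p = 0.0344). Replicate 1 was the lowest in both varieties for that gene. LOC111886019 had 100, 328 and 115 CPM in Luna bionda and 5.92, 10.5 and 15.9 CPM in Falstaff, a difference of 4.37 ± 0.63, and missed the call without Falstaff replicate 1 (limma adjusted p = 0.0342 with it and 0.0574 without).

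The last of these higher protein-coding genes were LOC111897498 and LOC111900418. LOC111897498 had 34.5, 16.5 and 39.9 CPM in Luna bionda, against 1.97, 4.18 and 3.38 CPM in Falstaff, a difference of 3.60 ± 0.41 (limma adjusted p = 0.017). LOC111900418 had 43.7, 80.9 and 76.1 CPM in Luna bionda and 3.95, 12.8 and 12.9 CPM in Falstaff, a difference of 3.30 ± 0.51 (limma adjusted p = 0.0438). The groups did not overlap for either gene. Of long noncoding RNAs, 3 reached this level and all were higher in Luna bionda. LOC128127585 had 57.3, 60.1 and 51.3 CPM in Luna bionda, against 5.92, 3.96 and 4.66 CPM in Falstaff, a difference of 3.94 ± 0.43 (limma adjusted p = 0.0162). LOC122197416 had 20.2, 12.1 and 12.6 CPM in Luna bionda and 1.97, 4.12 and 2.94 CPM in Falstaff, a difference of 2.71 ± 0.43 (limma adjusted p = 0.0467). Unlike the first, whose Luna bionda libraries lay within a narrow band, this gene had an adjusted p close to the threshold. LOC111881972 had 82.2, 129 and 95.2 CPM in Luna bionda and 14.8, 26.7 and 32 CPM in Falstaff, a difference of 2.52 ± 0.40 (limma adjusted p = 0.0467, and 0.0604 without Falstaff replicate 1).

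Lower in Luna bionda, LOC111879914 and LOC111877039 had the widest gaps at this level. LOC111879914 had 7.1, 15.8 and 1.02 CPM in Luna bionda, against 2649, 1316 and 1974 CPM in Falstaff, a difference of -8.16 ± 1.05 on the log2 scale (limma adjusted p = 0.0243). LOC111877039 had 0.939, 0.91 and 0.338 CPM in Luna bionda, against 764, 315 and 239 CPM in Falstaff, a difference of -8.61 ± 0.72 (limma adjusted p = 0.0103). Both were highest in the shallow Falstaff library, and without it they remained called at -7.74 and -7.99. LOC111904214 had 5.64, 1.4 and 1.96 CPM in Luna bionda and 250, 165 and 239 CPM in Falstaff, a difference of -5.97 ± 0.52 (limma adjusted p = 0.0103). LOC111902733 had 1.17, 0.971 and 0.948 CPM in Luna bionda, against 19.7, 59.5 and 58.8 CPM in Falstaff, a difference of -4.82 ± 0.47 (limma adjusted p = 0.0125). For this gene the shallow library was the lowest of the Falstaff libraries and still far above every Luna bionda library. The other 4 of the 8 lower protein-coding genes named at this level, LOC111899011, LOC111881031, LOC111890000 and LOC111883734, had differences between -4.52 and -3.58 (limma adjusted p between 0.0243 and 0.0378). Their Luna bionda values ran between 0.705 and 7.4 CPM and their Falstaff values between 18.7 and 134 CPM, with no overlap for any of the 4.

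**Figure D2:**
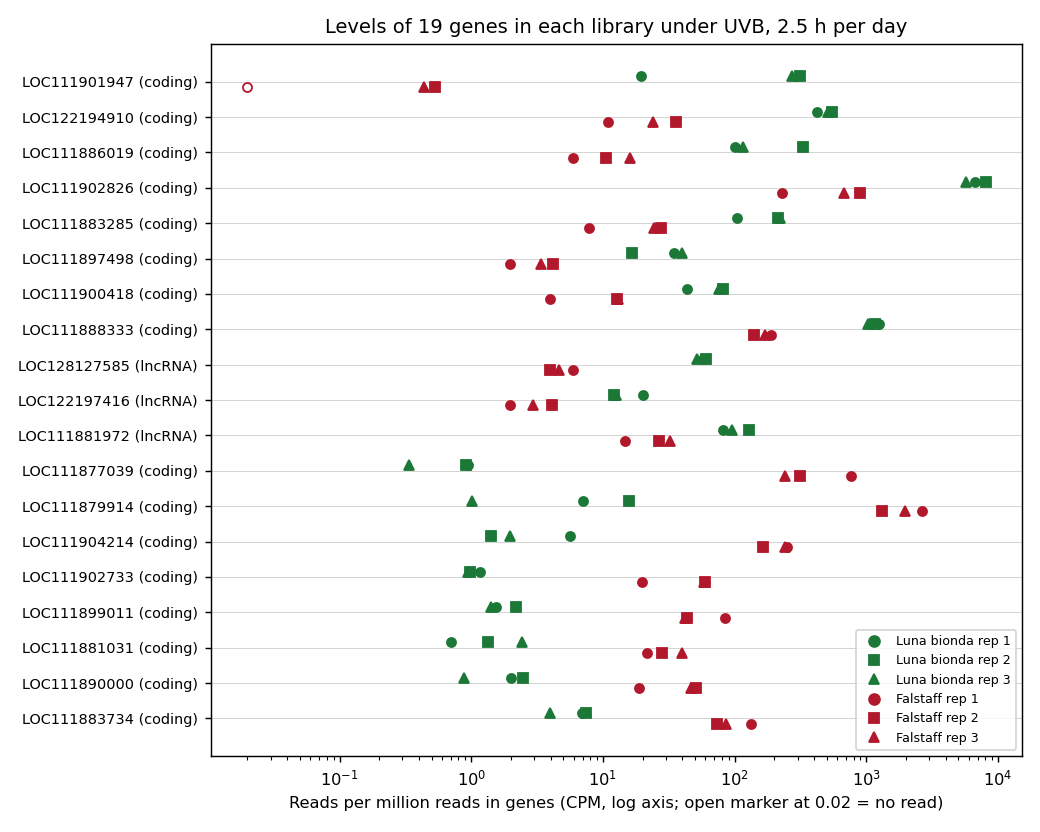
Levels of the 19 named genes whose mean log2 level reached 6, in CPM on a log axis. Luna bionda libraries are drawn above Falstaff libraries in each row, with 1 marker per library and an open marker for no read. The groups do not overlap in any row, and LOC111901947 has Luna bionda replicate 1 at 19.6 CPM, far under replicates 2 and 3.

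Both nuclear genes with a product name missed the test. The gene for triosephosphate isomerase (LOC111889525), an enzyme of glycolysis and of carbon fixation, had 2187, 1140 and 1348 CPM in Luna bionda, against 520, 1561 and 1296 CPM in Falstaff, a difference of 0.97 ± 0.54 (limma adjusted p = 0.415). In CPM the groups overlapped, with the shallow library lowest, whereas on the normalized scale of the test they did not. The gene for cytosolic glutamine synthetase (LOC111883376), which joins ammonium to glutamate, had 181, 397 and 416 CPM in Luna bionda and 193, 253 and 301 CPM in Falstaff, a difference of 0.75 ± 0.49 (limma adjusted p = 0.477). For that gene they overlapped on both scales.

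Outside the protein-coding and long noncoding classes limma called no gene. None of 154 ribosomal RNA genes, 126 small nucleolar RNA genes, 44 small nuclear RNA genes, 6 transfer RNA genes, 32 plastid photosynthesis genes, 7 plastid expression genes and 38 mitochondrial genes tested was called. Of the 397 genes in these lists together, 4 had an unadjusted p below 0.05 with limma, edgeR called 0 and DESeq2 called 59, all lower in Luna bionda. Their median differences lay between -2.77 and -1.90 on the log2 scale, and between 0.06 and 1.20 without Falstaff replicate 1, where 1 to 78 members of a list were still tested, so the sign turned with that library in all 7 classes. Over all genes the medians were 0.07 with it and -0.05 without it. Summed ribosomal RNA genes had 11.3, 13.4 and 20.2 CPM in Luna bionda, against 36546, 24.4 and 13.9 CPM in Falstaff, and small nucleolar RNA genes had 319, 228 and 221 CPM in Luna bionda, against 22228, 331 and 280 CPM in Falstaff. In both the high value belongs to Falstaff replicate 1 alone, and the other Falstaff libraries lie near those of Luna bionda. The part of this make-up in the calls of other genes was not tested beyond the omission of the library.

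Without Falstaff replicate 1, 473 of 21808 genes were called (2.17%), 201 higher (0.922%) and 272 lower (1.25%) in Luna bionda. Of these, 203 were among the 209 called with all 6 libraries, in the same direction. Of the 270 others, 227 had also been tested with all libraries, and all 227 had the same direction there. Long noncoding RNAs numbered 272 of the 473 and protein-coding genes 200. The 6 genes that were lost were LOC111886019, LOC111902826, LOC111881972, LOC111881628, LOC111915479 and LOC111900511, with limma adjusted p between 0.0564 and 0.112. With edgeR's quasi-likelihood test the count without the shallow library was 273.

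Several genes came into view only when the shallow library was set aside. LOC111892516 had 16.1, 3.52 and 13.6 CPM in Luna bionda, against 3.95, 725 and 661 CPM in Falstaff. With all libraries the groups overlapped and the difference of -3.34 ± 1.80 missed the test (limma adjusted p = 0.408), and without Falstaff replicate 1 it was -5.62 ± 0.57 (adjusted p = 0.0118). LOC111897207 had 92.9, 79.4 and 77.8 CPM in Luna bionda and 0, 2.68 and 3.01 CPM in Falstaff, a difference of 5.45 ± 0.28 without that library (limma adjusted p = 0.00497, and 0.0712 with it). In the shallow library a count of 0 allows a level of up to 2.96 CPM, close to the values of the other Falstaff libraries. LOC111878917 had 12.6, 16 and 10.6 CPM in Luna bionda and 6.9, 0.749 and 1.1 CPM in Falstaff, a difference of 4.34 ± 0.47 without the library (limma adjusted p = 0.0141, and 0.227 with it). In the deep libraries of other conditions LOC111892516 ran from 2.91 to 204 CPM in Luna bionda and from 11.1 to 150 CPM in Falstaff. Its differences were -2.01 ± 1.75 under visible light and -0.57 ± 1.09 at day 0. The varieties thus overlapped there for that gene, whereas for LOC111897207 and LOC111878917 they did not.

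The count of calls depended on single libraries of both varieties. Without Luna bionda replicate 1 there were 265 calls (1.26%), 169 higher and 96 lower, of which 112 were among the 209. Without Luna bionda replicate 2 or replicate 3 there were 0 calls, with 1783 and 2256 genes at an unadjusted p below 0.05. Without Falstaff replicate 2 there were 3 calls and without Falstaff replicate 3 there were 8. The direction of the 24 genes named above from the calls with all 6 libraries was the same in every one of these fits, and their limma adjusted p ranged between 0.0603 and 0.232 without Luna bionda replicate 2 and between 0.0728 and 0.251 without replicate 3. Of the 24, 3 were still called without Falstaff replicate 2, 6 without Falstaff replicate 3 and 18 without Luna bionda replicate 1. Each such fit leaves 2 libraries in a variety. With all 6 libraries, edgeR did not call LOC111902826, LOC111881972 and LOC111879914 (adjusted p = 0.0597, 0.0617 and 0.0522). Scaling by library totals ended the calls of 6 of the 15 higher genes (limma adjusted p up to 0.13) and of none of the 9 lower ones.

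**Figure D3:**
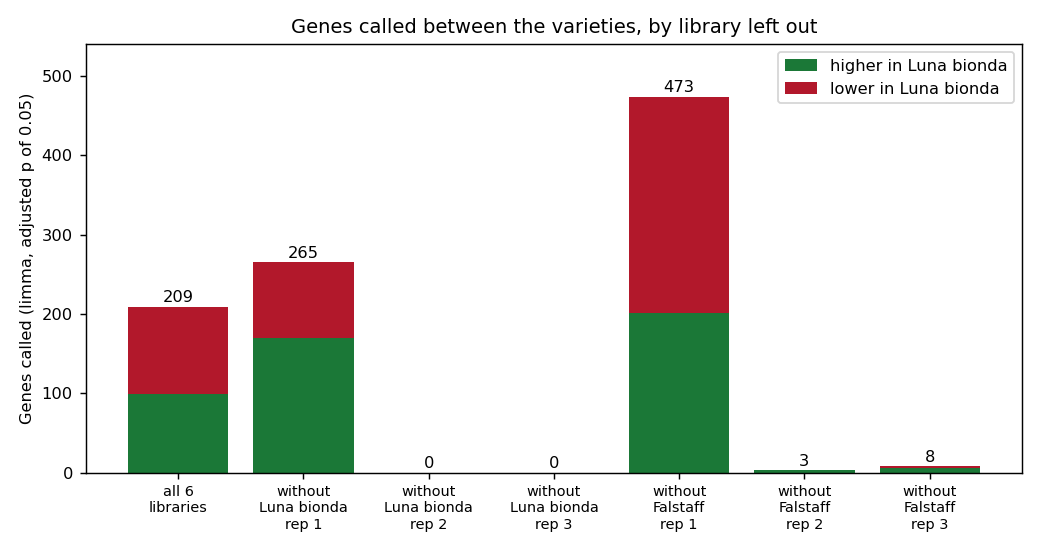
Number of genes called between the varieties under UVB (limma, adjusted p of 0.05) with all 6 libraries and with each library left out, split into genes higher and lower in Luna bionda. The count is 209 with all libraries, 473 without Falstaff replicate 1 and 265 without Luna bionda replicate 1, and between 0 and 8 without any of the other 4.

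Nearly all genes called under UVB had the same direction of difference between the varieties in the other conditions, in libraries other than those of the UVB comparison. At day 6 under visible light 228 of 22385 genes were called between the varieties (1.02%), and at day 0 287 of 21635 (1.33%). Of the 209 genes, 144 were called in the same direction under visible light, 68.9% of the UVB list and 63.2% of the visible light list. At day 0 the number was 161, 77% of the UVB list and 56.1% of the day 0 list. None was called in the opposite direction in either condition. All 209 genes that were tested at day 0, and 202 of 208 tested under visible light, had the direction seen under UVB. In that direction their median differences were 6.58 at day 0 and 6.98 under visible light, where the medians over all genes were 0.09 and 0.07. In all 3 conditions 131 genes were called. These counts of shared calls, unlike the directions, depended on single libraries. Without Falstaff visible light replicate 1 limma called 59 genes under visible light (0.268%, 55 higher and 4 lower), 47 of them among the 209, and 45 genes were called in all 3 conditions. The shared calls were 178 without Falstaff visible light replicate 2, 35 without replicate 3, and 0 without any 1 of the Luna bionda visible light libraries, where limma called 0, 1 and 0 genes in all, with 1164, 841 and 1147 at an unadjusted p below 0.05. At day 0 they were 185 without Falstaff replicate 1, 39 and 47 without Falstaff replicates 2 and 3, and 4, 7 and 0 without Luna bionda replicates 1, 2 and 3, the last with 1194 genes at an unadjusted p below 0.05. These omissions were chosen after seeing the data. Between 197 and 204 genes had the UVB direction under visible light in these fits, and between 206 and 209 at day 0, of 205 to 209 tested.

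The named genes divided on this point. LOC111904214 differed by -5.97 under UVB, -5.57 under visible light and -5.42 at day 0, and LOC111902733 by -4.82, -5.56 and -5.44. LOC111879914 differed by -8.16, -9.21 and -11.13 in the same order, and all 3 genes were called in each condition. By contrast LOC111888333 differed by 3.21 under UVB, -0.24 under visible light (limma adjusted p = 0.945) and 1.42 at day 0 (adjusted p = 0.31). LOC111883285 gave 3.70, -0.27 and 1.25, and LOC111900418 gave 3.30, -0.11 and 0.97, each called under UVB alone. LOC111877039 gave -8.61 under UVB, -2.07 under visible light and -4.68 at day 0, and was called only under UVB. Its difference under visible light was -3.15 ± 1.19 without Falstaff visible light replicate 1, which had 11.3 CPM.

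**Figure D4:**
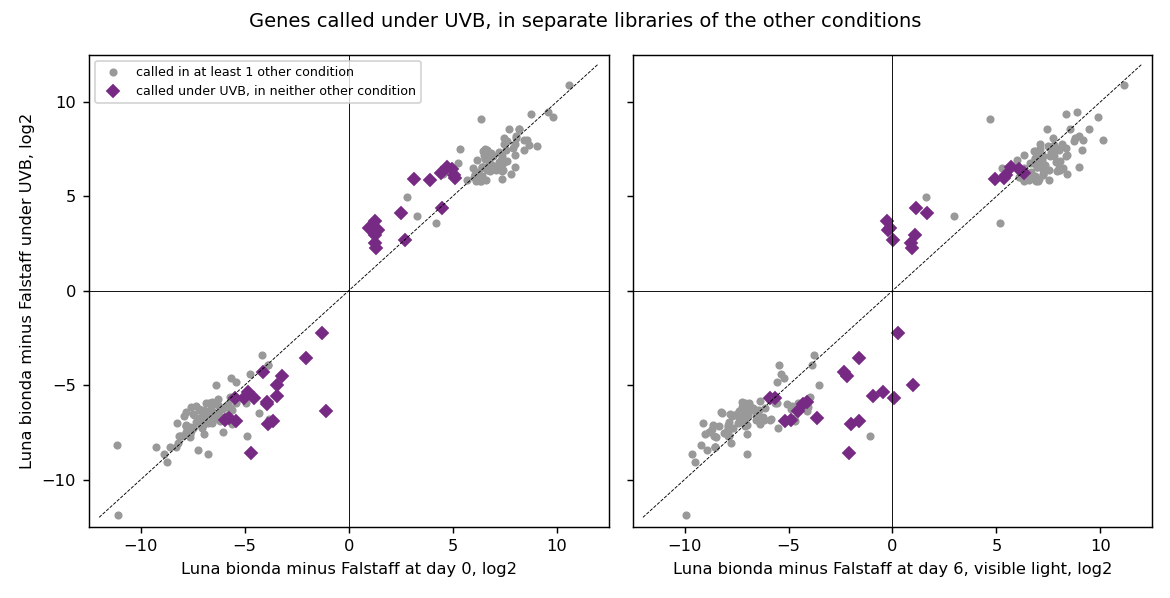
Luna bionda minus Falstaff on the log2 scale under UVB (vertical axis) for the called genes, against the same difference at day 0 (left) and at day 6 under visible light (right). Grey circles are genes called in at least 1 other condition and diamonds are the 35 called in neither. The dashed line marks equal differences. All genes keep their sign at day 0, and several diamonds sit near 0 under visible light.

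There were 35 genes called under UVB and in neither other condition, 16 higher and 19 lower in Luna bionda, 25 of them protein-coding and 10 long noncoding RNAs. A call in one condition and none in another does not show that the conditions differ. At day 0 all 35 had the same direction and 27 differed by at least 4-fold. Under visible light 28 of 34 tested had the same direction and 18 differed by at least 4-fold. The difference itself was tested with 12 libraries, as the difference between varieties under UVB minus that under visible light. In Luna bionda all UVB libraries are of the lower tag series and all visible light libraries of the upper. Light and tag series therefore cannot be told apart within that variety in this contrast. No gene of 21948 passed (0%, limma smallest adjusted p = 0.681), with 1559 genes at an unadjusted p below 0.05 where 1097 would fall by chance. Against day 0 none of 21562 passed (0%, smallest adjusted p = 0.997), with 663 genes at an unadjusted p below 0.05 where 1078 would fall by chance. The edgeR test also gave 0 for both, with 2175 and 925 genes at an unadjusted p below 0.05, while DESeq2 gave 331 and 6. The median standard error of these contrasts was 0.97 and 0.92 on the log2 scale. Changes well beyond a few fold also went uncalled, such as -6.58 ± 1.63 for LOC111877039 against visible light (limma adjusted p = 0.681). The absence of limma calls therefore does not exclude large changes of the variety difference.

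Since the 35 genes were chosen for a call under UVB and none elsewhere, their contrasts are given as values only. LOC111920128 did not pass in the contrast with visible light (limma adjusted p = 0.681). It had 7.52, 3.82 and 7.34 CPM in Luna bionda and 28.6, 47.9 and 37.9 CPM in Falstaff under UVB, a difference of -2.22 ± 0.34, against 0.27 ± 0.45 under visible light. LOC111888333 had a contrast of 3.44 ± 0.82 with visible light and 1.79 ± 0.59 with day 0. Its values under visible light were 219, 681 and 502 CPM in Luna bionda and 878, 177 and 439 CPM in Falstaff, and at day 0 they were 620, 466 and 832 CPM in Luna bionda and 162, 207 and 349 CPM in Falstaff. In CPM the groups thus overlapped widely under visible light, whereas at day 0 Luna bionda was the higher in every library. Falstaff visible light replicate 1 was the highest there. In its ranking of genes it had correlations of 0.876 and 0.9 with Luna bionda UVB replicates 2 and 3, and of 0.908 and 0.898 with Falstaff UVB replicates 2 and 3. Without that library the differences under visible light were 0.20 for LOC111888333, 0.26 for LOC111900418 and -0.29 for LOC111883285, and 30 of 34 genes had the direction seen under UVB. The genes called under UVB alone then numbered 46, and their number rests on the calls of the other conditions.

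Leaving out Luna bionda UVB replicate 1 changed the tests of the contrasts. It gave 13 calls against visible light and 34 against day 0 with limma, with 2919 and 2112 genes at an unadjusted p below 0.05. Leaving out any other single library of the 12 gave 0 in both contrasts, as did leaving out all shallow libraries.

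To describe presence and absence with genes that the UVB libraries did not choose, genes were taken that had at least 10 reads in each deep library of one variety and no read in any deep library of the other, over all conditions except UVB for 2.5 h. There were 8 deep libraries of Luna bionda and 5 of Falstaff. This gave 92 genes with reads in Luna bionda only, 69 of them long noncoding RNAs and 23 protein-coding, and 130 with reads in Falstaff only, 91 long noncoding RNAs and 38 protein-coding. In the UVB libraries of Luna bionda, 92, 83 and 90 of the 92 genes had reads, against 0, 1 and 1 in Falstaff. The Falstaff reads were 0, 1 and 2 in all, where the Luna bionda libraries held 11634, 5995 and 15151. Of the 130 genes, 3, 2 and 2 had reads in Luna bionda and 74, 130 and 129 had reads in Falstaff. The reads summed to 7, 4 and 4 in Luna bionda, against 364, 13159 and 19933 in Falstaff. In level the 130 genes summed to 359 CPM in Falstaff replicate 1, where 1 read is worth 0.986 CPM, and to 704 and 732 CPM in replicates 2 and 3.

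Of the 92 genes, 83 had a read in every Luna bionda UVB library and 69 had at least 10 reads in each. Of the 130 genes, 129 had a read in both deep Falstaff UVB libraries and 122 had at least 10 in each. Exceptions with reads in the other variety were few. LOC128126820 had 47, 113 and 26 reads in Luna bionda and 0, 1 and 0 in Falstaff, and LOC111898653 had 57, 18 and 14 reads in Luna bionda and 0, 0 and 2 in Falstaff. LOC111907150 had 4, 0 and 2 reads in Luna bionda, against 4, 10 and 20 in Falstaff, the highest count of any of the 130 genes in a Luna bionda library. Among the genes missing from a library of their own variety, LOC111893240 had 42, 0 and 0 reads in Luna bionda and none in Falstaff, so it was seen in replicate 1 only.

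**Figure D5:**
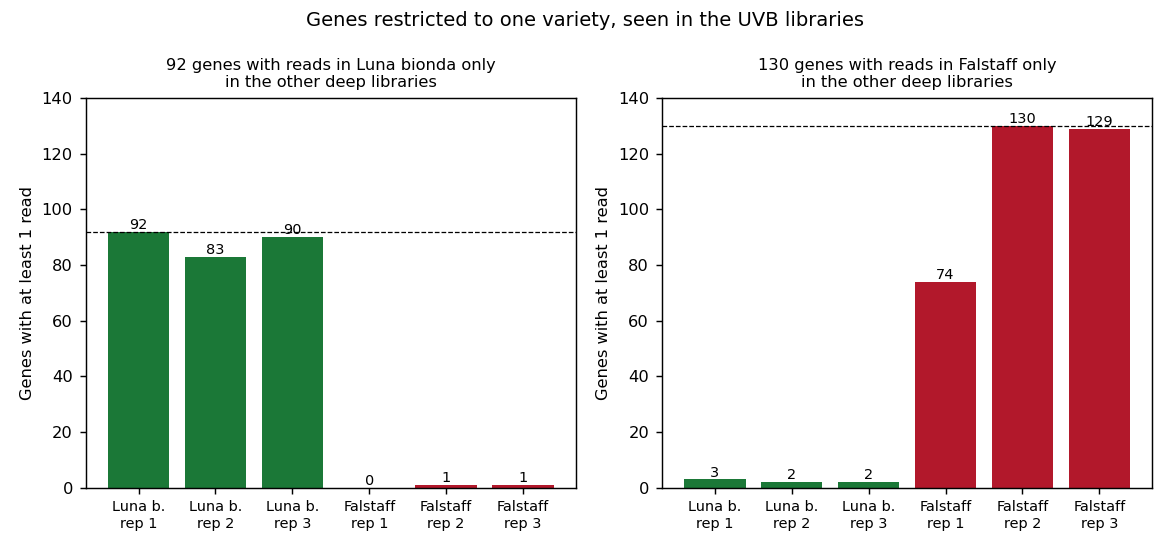
Number of genes with at least 1 read in each UVB library, for the 92 genes found in Luna bionda only and the 130 found in Falstaff only in the deep libraries of the other conditions (dashed lines). Of the 92 genes, 83 to 92 had reads in Luna bionda and at most 1 in Falstaff. Of the 130 genes, at most 3 had reads in Luna bionda and 74 to 130 in Falstaff, with the 74 in the shallow library.

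Some called genes were direct neighbours in the genome. Among the tested genes in their order along the RefSeq assembly, 25 of 209 called genes (12%) had a called direct neighbour, and 378 of 20901 other genes (1.81%) did. Of the 25, 21 had a neighbour called in the same direction and 4 one called in the opposite direction. There were 11 runs of called neighbours, and the longest held 5 genes, LOC111875857, LOC111875858, LOC111884345, LOC111884344 and LOC111884346. All 5 were higher in Luna bionda, between 2.98 and 24.3 CPM, with no read in any Falstaff library. In the opposite sense, LOC111879914 sat beside LOC111920375, which had 11.3, 9.46 and 8.19 CPM in Luna bionda and no read in Falstaff. LOC111886651 had 27.7, 2.18 and 5.01 CPM in Luna bionda and none in Falstaff, beside LOC111886654 with none in Luna bionda and 11.8, 16.5 and 14 CPM in Falstaff. These runs were picked out after their values were seen, and no test was made of them. Spans that overlap another gene, where unstranded counting could mix reads, were rare among called genes (3 of 209, or 1.44%, against 5.83% of all tested) and none of the genes named by rule had one.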

How the data were processed

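Total RNA of whole leaves was extracted with Trizol, amplified as cDNA and sequenced as paired-end Nextera XT libraries, and the molecule is given as polyA RNA, per the labels' protocols. Per the submitters' processing notes, STAR and featureCounts 1.6.3 were used; the version of STAR and any genome build or strand setting were not given in the sources used here. Normalized signal per gene was deposited by the authors in 7 tables. At a relative tolerance of 0.001, 100.0% of the nonzero deposited values were whole multiples of a step, so whole reads were recovered and the 24 libraries joined over 31499 genes. Of these identifiers 31073 matched RefSeq (assembly Lsat_Salinas_v11), used for biotype and gene order only, and 426 did not.

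Level is given as CPM of the reads in genes, with no correction for gene length, so levels are not compared between genes. R 4.3.3 ran limma 3.58.1, with its trend option, on log2(reads / median-of-ratios size factor + 1), for genes with a mean of at least 10 normalized reads. The fit was also run on simulated data drawn from a single mean profile for all libraries. Those data lacked the make-up of Falstaff replicate 1, so they do not show how the fit behaves on the libraries used here. As alternatives, DESeq2 1.42.0 and edgeR 4.0.16 (quasi-likelihood) ran on the recovered reads. Other alternatives were TMM and library-total scaling, pseudocounts 0.5 and 5, no filter, a replicate block, a batch tag term, sample weights, all 24 libraries in a single fit, and each library left out. A deep library had at least 0.2 of the median total. Fold changes with a pseudocount understate those of low genes, and floors of 3 reads cover counting error only.

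Named genes were the 8 protein-coding genes and 4 long noncoding RNAs per direction with the largest called change, if their groups did not overlap and their mean log2 level reached 6, and the 3 called genes with the largest change in each list. The same rule was applied to calls without Falstaff replicate 1, from which a few are given. Members, rules and lists were chosen with earlier results of these data known. The 8 lists by product name (flavonoid, light signalling and others) could not be filled, and protein identity between genes was not computed, since the tables used give no product names or proteins.

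Groups follow the labels. The names of the deposited tables give another condition for the Falstaff UVB libraries and for the day 0 and visible light libraries of both varieties, which was not settled.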

Additional observations from a re-analysis of the deposited data

How the results depend on the processing

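The count of 209 genes stayed between 193 and 223 with TMM, library totals, either pseudocount, no filter or edgeR. It was 2065 with DESeq2 (2188 without Falstaff replicate 1), 5539 with limma sample weights, 352 with all 24 libraries in a single fit and 6281 with a batch tag term, in which only Falstaff replicate 1 shares a tag series with Luna bionda. Leaving out 1 library gave 0 to 473. Same-numbered libraries had correlations of deviations of -0.16, -0.10 and -0.11, and the other pairs ran from -0.20 to 0.23. Since replicate 1 stood apart in both varieties, these values cannot tell whether same-numbered libraries share a block. With a replicate block 0 genes passed (limma), with 2926 at an unadjusted p below 0.05. The contrast with visible light gave 331 with DESeq2, 2995 with the tag term, 3739 with weights and 0 to 13 with 1 library left out. That with day 0 gave 6, 4, 537 and 0 to 34. All 24 named genes kept their direction in each setting. Added after seeing the data, 1 library left out of the other conditions gave 0 to 178 genes called also under visible light (144 with all) and 0 to 185 at day 0 (161 with all), and 46 in place of 35 genes called under UVB alone without Falstaff visible light replicate 1. Depth limits absence in Falstaff replicate 1, where 3 reads are 2.96 CPM.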

Other observations

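A few of the named genes set Falstaff visible light replicate 1 apart from the other deep Falstaff libraries outside UVB for 2.5 h. LOC111901947 had 45.4 CPM in that library, and the other 4 had between 0.484 and 0.789 CPM. LOC122194910 had 198 CPM there and between 20 and 50.8 CPM in the other 4, and LOC111877039 had 11.3 CPM there and between 226 and 742 CPM in the others. These values are nearer to those of Luna bionda in the same condition, which were 43.6, 28.9 and 23.7 CPM for LOC111901947 and 21.3, 37.9 and 2.36 CPM for LOC111877039. Yet LOC111897498, LOC128127585 and LOC111879914 kept the Falstaff level in all 5 deep Falstaff libraries, between 1.16 and 3.74 CPM, 3.41 and 5.56 CPM, and 1276 and 6746 CPM, and in the 8 deep Luna bionda libraries they ranged between 25.9 and 44.7 CPM, 26 and 99.6 CPM, and 0.166 and 7.51 CPM.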
